A study of Mus musculus with 23 samples.

Results

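The 57 genes described here are mouse cytochrome P450 genes, chosen as every gene whose symbol is Cyp followed by a digit, other than Cyp26b1 and Cyp51, that was well above background on all arrays of at least 1 of 8 groups. They were 57 of 96 such Cyp genes with a named probe, and 57 of 16324 genes that met the same rule on detection. The groups were whole lacrimal gland (LG) at 7 weeks of age (2 arrays), whole harderian gland (HG) at 7 weeks (3 arrays), and the separated epithelium and mesenchyme of LG, HG and eyelid at embryonic day 16.5 (3 arrays in each of 6 groups). All 23 samples carry the same strain label, B6/CL, with no allele, transgene or treatment named. Total RNA was labelled with a single dye and hybridised to Agilent mouse arrays, and each level below is log2 of the processed intensity minus the array's own 75th percentile. The labels do not say whether replicates came from separate animals or pools, so p-values measure the spread between these arrays, which may be technical.

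Cytochromes P450 are haem enzymes that insert an oxygen atom into a substrate, with electrons passed from NADPH by the reductase Por, helped by cytochrome b5 (in the endoplasmic reticulum), or by the ferredoxin Fdx1 and its reductase Fdxr (in mitochondria). Families named Cyp1 to Cyp4 oxidise foreign chemicals, fatty acids and eicosanoids, whereas the higher-numbered families mostly act in the synthesis and breakdown of steroids, bile acids, vitamin D and retinoids. The LG makes the aqueous tear fluid with its proteins, the HG of rodents secretes lipid and porphyrin, and the eyelid epithelium at this age is forming a cornified surface.

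The labelled tissues were checked against summed marker lists. The summed level of 3 measured LG secretory markers (Aqp5, Chrm3 and Dmbt1) lay between 455 and 493 on adult LG arrays and between 5.69 and 7.03 on adult HG arrays, in multiples of the array's 75th percentile. Dmbt1 (a log2 difference of 10.24, LG minus HG) and Aqp5 (5.09) carried that sum, and the muscarinic receptor Chrm3 was not called between the adult glands (0.02 ± 0.46). That of 5 HG lipid and porphyrin markers lay between 49 and 59.9 on adult LG arrays and between 723 and 862 on adult HG arrays. Mesenchyme markers summed to 135 to 301 over the 3 epithelial groups and to 1580 to 2310 over the 3 mesenchymal groups. Y-linked Ddx3y and Eif2s3y were well above background on all 18 embryonic arrays and on none of the 5 adult arrays, so in comparisons of age the adult stage and the absence of Y-linked signal cannot be told apart. Of all arrays, those of adult LG were dimmest at the 75th percentile (194 and 139, against 313 to 857 intensity units elsewhere), and their weakest signal still called above background was −3.30 and −2.77, against −5.46 to −3.94 on the other arrays.

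The 57 genes were selected on measured values, the detection flags of the 8 groups, and those flags are given as description only. Of these genes, 22 were well above background on every array of all 8 groups, and 11 qualified through a single group: 7 through adult HG (Cyp2c23, Cyp2j11, Cyp3a25, Cyp3a57, Cyp3a59, Cyp4a32 and Cyp4f15), 2 through adult LG (Cyp2d10 and Cyp4a12a) and 2 through eyelid epithelium (Cyp2w1 and Cyp4f39). Those 11 had to be higher where they qualified. Just inside the rule, Cyp2d10 was detected on 2 arrays, both of adult LG, and Cyp2c23, Cyp2j11, Cyp3a25, Cyp3a57 and Cyp4a32 on 3 arrays, all of adult HG. Just outside it, Cyp26a1 (retinoic acid breakdown) was detected on 2 of 3 LG epithelium arrays, Cyp2c65 on 2 of 3 LG mesenchyme arrays, Cyp2g1 on 2 of 3 eyelid epithelium arrays, and Cyp2d9 on 5 arrays, 1 of them adult LG. Of the 39 Cyp genes that did not qualify, 24 were on no array and 15 on 1 to 5 arrays; the vitamin D-degrading Cyp24a1, the bile acid enzyme Cyp7a1 and the aryl hydrocarbon receptor targets Cyp1a1 and Cyp1a2 were on no array.

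The adult glands held the highest group mean for most of the genes. Adult LG was highest for 19 of the 57 (33.3%, against 18.2% of all genes), and adult HG for 25 (43.9%, against 21.4% of all genes). In 11 of the 19 and 2 of the 25 the arrays overlapped with those of the next highest group, and the background of adult LG arrays sits higher on this scale. No share over all genes was taken for this overlap, so it describes these genes only. Eyelid epithelium was highest for 5 (all genes 10.2%), HG mesenchyme for 4 (all genes 10%) and LG mesenchyme for 2 (all genes 10.5%). LG epithelium was highest for 1 (all genes 11.7%), eyelid mesenchyme for 1 (all genes 6.7%) and HG epithelium for 0 (all genes 11.4%). In whole glands, fewer cells of a type and less RNA per cell cannot be told apart.

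**Figure D1:**
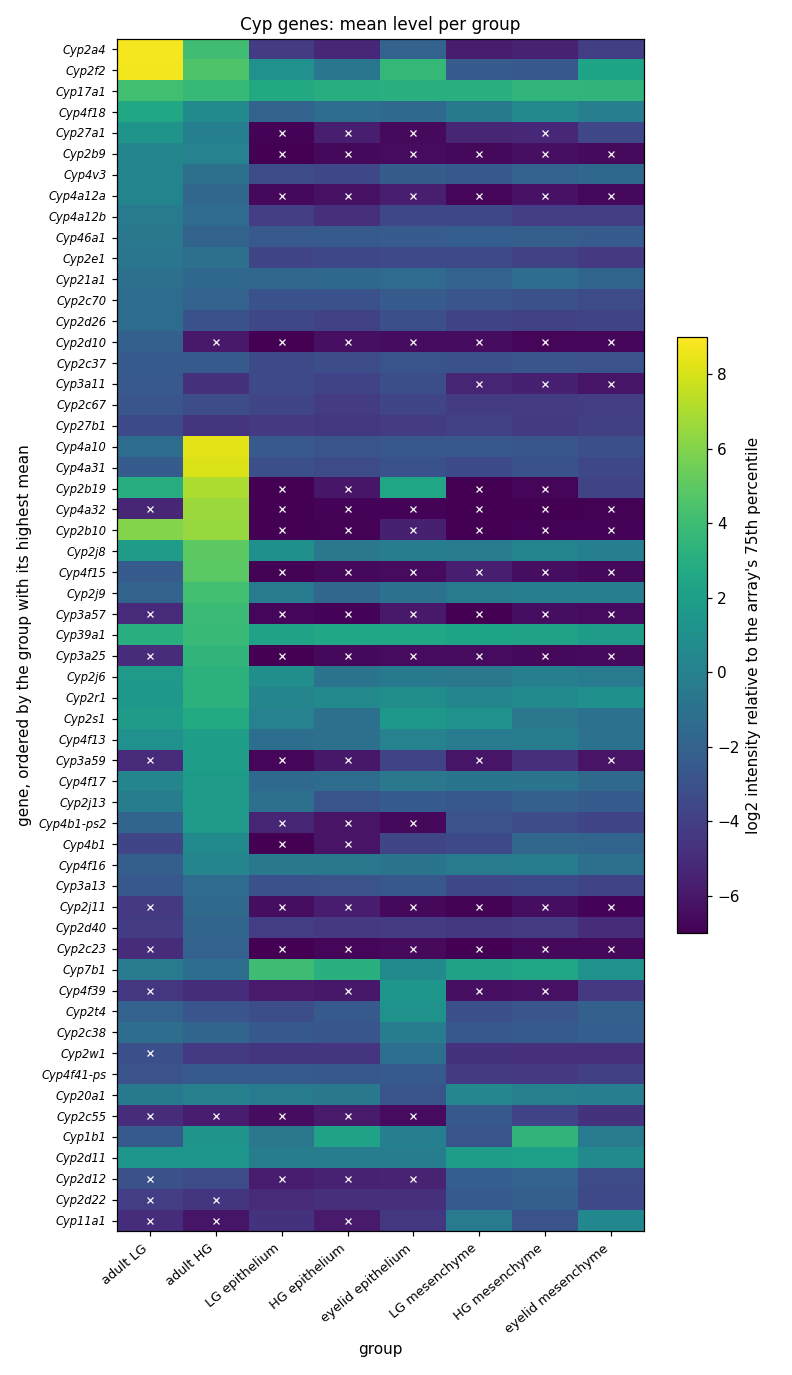
Mean level of each of the 57 Cyp genes (rows) in the 8 groups (columns), as log2 intensity relative to the array's 75th percentile, with a cross where no array of the group was well above background. Colours are to be compared along a row, since different probes differ in brightness; 19 rows are brightest in adult LG and 25 in adult HG.

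The first comparison set adult LG against adult HG. With limma's moderated test, 34 of the 57 Cyp genes passed an adjusted p of 0.05 (Benjamini-Hochberg over all 16324 genes), beside 55.6% of all genes, with 10 higher in LG (all genes 22.4%) and 24 lower (all genes 33.2%). The median log2 difference, LG minus HG, was −0.01 over the 57 genes and −0.13 over all genes. Of 19 fatty acid and eicosanoid enzymes, 2 were higher and 13 lower in LG, and of 29 drug-type enzymes or enzymes of unassigned substrate, 5 were higher and 10 lower. The lower genes include 3 of the first kind and 4 of the second that qualified through adult HG alone and so had to be lower in LG; for genes that qualified through adult HG alone or adult LG alone, values are given below with no p. With normexp background correction the split over the 57 genes was 19 higher and 23 lower. Some markers of other cell types moved with this comparison: the 10 mesenchyme markers summed to 149 to 168 in adult LG (Twist1 not detected) and to 312 to 643 in adult HG. The 7 endothelial markers summed to 22.4 to 37.3 (Tie1 not detected) and 24.1 to 57.7, with overlap. Of these, Pecam1 was higher in LG (1.06 ± 0.39), Kdr was not called (0.90 ± 0.43), and Cdh5, Emcn, Tie1, Esam and Egfl7 were lower. The 7 skeletal muscle markers summed to 1.08 to 1.49 in adult LG, where 6 were not detected, and to 1.22 to 27.8 in adult HG, with overlap. The 5 pigment cell markers summed to 0.545 to 0.938 in adult LG, where Dct and Tyrp1 were not detected, and to 34 to 46.2 in adult HG. Their part in the Cyp differences was not tested.

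The Cyp4a genes, omega-hydroxylases of medium- and long-chain fatty acids and known targets of Ppara in mouse liver, showed the widest gap. Cyp4a10 stood at −0.83 and −1.88 on adult LG arrays, against 7.59, 8.43 and 8.95 on adult HG arrays. Cyp4a31 stood at −1.77 and −2.87 in adult LG, with this probe above background on 1 of 2 arrays, against 7.41, 8.27 and 8.76 in adult HG. Cyp4a32 stood at −5.51 and −5.01 in adult LG, not well above background on either array, against 5.67, 6.74 and 7.41 in adult HG. Every HG array was far above both LG arrays for all 3 genes. The log2 differences, LG minus HG, were −9.68 ± 0.62 (SE; limma adjusted p = 2.59e-10), −10.46 ± 0.50 (adjusted p = 5.34e-12) and −11.87 ± 0.37. Against the lowest signal called above background on the LG arrays, Cyp4a32 was at least 799-fold lower in LG; every "at least" fold here is such a bound, since a dim probe has no measured level. Nearby on chromosome 4, Cyp4a12a and Cyp4a12b did not follow: Cyp4a12a stood at 0.38 and 0.01 in adult LG, against −0.70, −0.58 and −3.84 in adult HG, and Cyp4a12b at −0.36 and −0.65 against −0.19, −0.33 and −3.61. HG replicate 3 was low for both, and neither difference passed the test.

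Cyp4a10, Cyp4a31 and Cyp4a32 are near-identical copies, as are Cyp3a25, Cyp3a57 and Cyp3a59, several Cyp2j genes, and Cyp2a4 with Cyp2a5. Probe sequences were not used here, so a probe may read its gene's copies and the share of each copy is uncertain. All 3 probes named Cyp4a10 ran the same way, with group means of −1.36, −3.75 and −2.25 in adult LG against 8.32, 7.94 and 5.81 in adult HG. Of 3 probes named Cyp4a31, the 2 not used had means of −1.54 and −3.94 in adult LG against 4.94 and 2.76 in adult HG.

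Other Cyp genes, not all of them counted among the 19 fatty acid and eicosanoid enzymes, followed the same direction. Cyp4f15, a hydroxylase of leukotrienes, stood at −2.32 and −2.45 in adult LG (1 of 2 arrays above background), against 4.45, 4.89 and 5.45 in adult HG, a difference of −7.32 ± 0.33 (SE). Cyp2j9, one of the Cyp2j epoxygenases of arachidonic acid, stood at −2.17 and −1.63 in adult LG, against 3.45, 4.41 and 4.62 in adult HG. The groups did not overlap for either gene, and Cyp2j9 differed by −6.06 ± 0.28 (limma adjusted p = 3.33e-12). All 5 Cyp2j genes, which lie side by side on chromosome 4, were highest in adult HG and lower in adult LG, from −6.06 for Cyp2j9 to −1.63 for Cyp2j6. Of these, Cyp2j11 qualified through adult HG alone and had to be higher there. The probes of Cyp2j13 not used had means of −3.72 and −5.04 in adult LG against −4.77 and −4.88 in adult HG. These means lie below the lowest signal called above background there and do not repeat its difference. Cyp2j8 differed by −3.11, and a second probe of that name gave means of −4.93 in adult LG against 1.07 in adult HG. Cyp4b1 (−4.22), its pseudogene Cyp4b1-ps2 (−3.34), the epoxygenase Cyp2c23 (−3.06, at least 2.13-fold), Cyp2b19 (−4.06), Cyp4f16 (−2.45), Cyp4f17 (−1.48) and Cyp4f13 (−0.86) were lower in LG as well. Cyp4b1 and Cyp4b1-ps2 were each above background on 1 of 2 adult LG arrays.

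3 drug- and steroid-oxidising Cyp3a genes were well above background on all arrays in adult HG and in no other group. Cyp3a59 was also above background on 2 of 3 eyelid epithelium arrays and 1 of 3 HG mesenchyme arrays. Cyp3a25 stood at −5.20 and −4.72 in adult LG, against 3.52, 3.33 and 3.61 in adult HG. Cyp3a57 stood at −5.59 and −4.54 against 3.78, 4.01 and 3.96, and Cyp3a59 at −5.25 and −4.78 against 1.81, 1.92 and 2.11. No LG array was well above background for any of them, which set bounds of at least 91.7-fold, 124-fold and 31.6-fold lower in LG. Cyp3a11, the main inducible Cyp3a enzyme of mouse liver and a neighbour of these genes on chromosome 5, ran the other way, with −2.91 and −2.21 in adult LG, against −4.56, −4.02 and −5.50 in adult HG. Its LG arrays were both above the HG arrays, by 2.13 ± 0.39 (limma adjusted p = 0.000151), and 1 of 3 HG arrays was above background. The other Cyp3a11 probe did not pass the detection rule. It had means of −4.97 in adult LG and −6.03 in adult HG, at background, and gives no level. Cyp3a13 overlapped between the glands on the probe used (−2.25 and −2.91 in adult LG, against −2.26, −0.91 and −0.99 in adult HG), and was called lower in LG (−1.19 ± 0.33), while its other probe had means of −4.98 in adult LG and −0.01 in adult HG.

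The promoters of these 4 genes are shown because 3 of them shared the adult HG pattern and the fourth did not. Promoter sequence from RefSeq (GRCm38.p6) was found for 43 of the 57 genes. Over the 250 bases before the annotated start, Cyp3a25, Cyp3a57 and Cyp3a59 were 89.2% to 95.6% identical to each other, and Cyp3a11 was 64.4% to 64.8% identical to them. The same count for the Cyp3a25 and Cyp4a32 promoters, which belong to different families, gave 60%. The 200 bases nearest the start are printed 5′ to 3′ on each gene's own strand, and capitals mark AGGTCA, a nuclear receptor half-site, or its reverse complement TGACCT. They cover chr5:146009618-146009817 (minus strand), chr5:145345069-145345268 (plus), chr5:146079058-146079257 (plus) and chr5:145879855-145880054 (minus).
Cyp3a25: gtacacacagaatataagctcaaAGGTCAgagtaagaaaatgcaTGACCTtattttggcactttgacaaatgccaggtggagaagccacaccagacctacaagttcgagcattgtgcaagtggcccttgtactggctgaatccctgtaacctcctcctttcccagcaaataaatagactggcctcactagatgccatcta
Cyp3a57: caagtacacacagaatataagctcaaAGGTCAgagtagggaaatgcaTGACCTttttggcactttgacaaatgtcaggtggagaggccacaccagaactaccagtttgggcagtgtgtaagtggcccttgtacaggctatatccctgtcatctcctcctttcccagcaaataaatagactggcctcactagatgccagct
Cyp3a59: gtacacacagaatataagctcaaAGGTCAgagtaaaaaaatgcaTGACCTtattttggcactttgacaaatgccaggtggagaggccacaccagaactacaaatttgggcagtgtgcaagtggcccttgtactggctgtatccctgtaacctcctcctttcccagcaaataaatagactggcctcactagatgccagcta
Cyp3a11: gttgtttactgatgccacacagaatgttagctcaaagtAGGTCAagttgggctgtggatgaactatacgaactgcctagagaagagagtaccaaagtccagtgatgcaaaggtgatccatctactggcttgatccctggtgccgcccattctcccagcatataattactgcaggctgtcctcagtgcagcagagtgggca
Each of the 3 genes measured in adult HG held 2 matches, first base 177 and 156 bases before the start in Cyp3a25 and Cyp3a59 and 174 and 153 in Cyp3a57, in opposite orientations. Cyp3a11 held 1 match, 162 bases before the start. Of all 32851 promoters of this length, 14% held the motif on either strand, as did 10 of the 43 genes matched here (23.3%). A match describes letters, not a bound site.

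Fewer genes were higher in LG. Cyp2a4, a testosterone hydroxylase of mouse liver, stood at 9.71 and 7.79 in adult LG, against 2.67, 4.23 and 5.29 in adult HG. Cyp2f2, which activates naphthalene in airway club cells, stood at 8.77 and 8.61 in adult LG, against 4.72, 5.04 and 4.05 in adult HG. Neither gene's groups overlapped, with differences of 4.69 ± 1.15 (SE; limma adjusted p = 0.00205) and 4.08 ± 0.63 (adjusted p = 2.7e-05). Obp1a, an odorant-binding protein on the list of nasal markers, stood at 10.27 and 10.83 on the same LG arrays and at 0.58, 5.43 and 6.53 on the HG arrays. Its order over HG arrays was that of Cyp2a4, but also that of Cyp4a10 and other Cyp genes. Over LG arrays Obp1a and Cyp2a4 ran in opposite orders. The summed nasal list (5 of 6 genes measured; Scgb1c1 not detected on adult LG arrays) lay between 1240 and 1830 in adult LG and between 4 and 94.5 in adult HG. Obp1a made up nearly all of the LG sum, since Scgb1c1 was lower in LG (−5.08 ± 0.56), Omp of olfactory neurons was not called (−0.44 ± 0.36) and Ascl3 was higher by 1.49 ± 0.35. The part of this list in the Cyp2a4 levels was not tested.

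Cyp2d10 stood at −1.92 and −2.23 in adult LG and on no HG array above background (at least 4.11-fold higher in LG). Cyp4f18, which hydroxylates leukotriene B4 in mouse neutrophils, stood at 3.49 and 1.55 in adult LG, against 1.17, 0.65 and −0.06 in adult HG, a difference of 1.93 ± 0.39 (limma adjusted p = 0.000433). It was 0.96 without LG replicate 1 and 2.91 without LG replicate 2. Immune markers (6 measured) summed to 31.9 to 68.7 on adult LG arrays and 24.7 to 101 on adult HG arrays, and their part in Cyp4f18 was not tested. Cyp2d26 (1.61), Cyp4v3 (1.35), whose human counterpart is mutated in a crystalline retinal dystrophy, and the sterol hydroxylase Cyp27a1 (1.38) were also higher in LG. The last of the 10 were Cyp7b1 (0.84), whose arrays overlapped, and Cyp11a1 (1.23), which was not well above background on any adult array. With only the compared groups in the fit, Cyp27a1, Cyp4f18 and Cyp4v3 lost their calls (limma adjusted p = 0.0539, 0.0567 and 0.0884). Cyp27a1 lost the call without LG replicate 1 (0.74, limma adjusted p = 0.149).

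**Figure D2:**
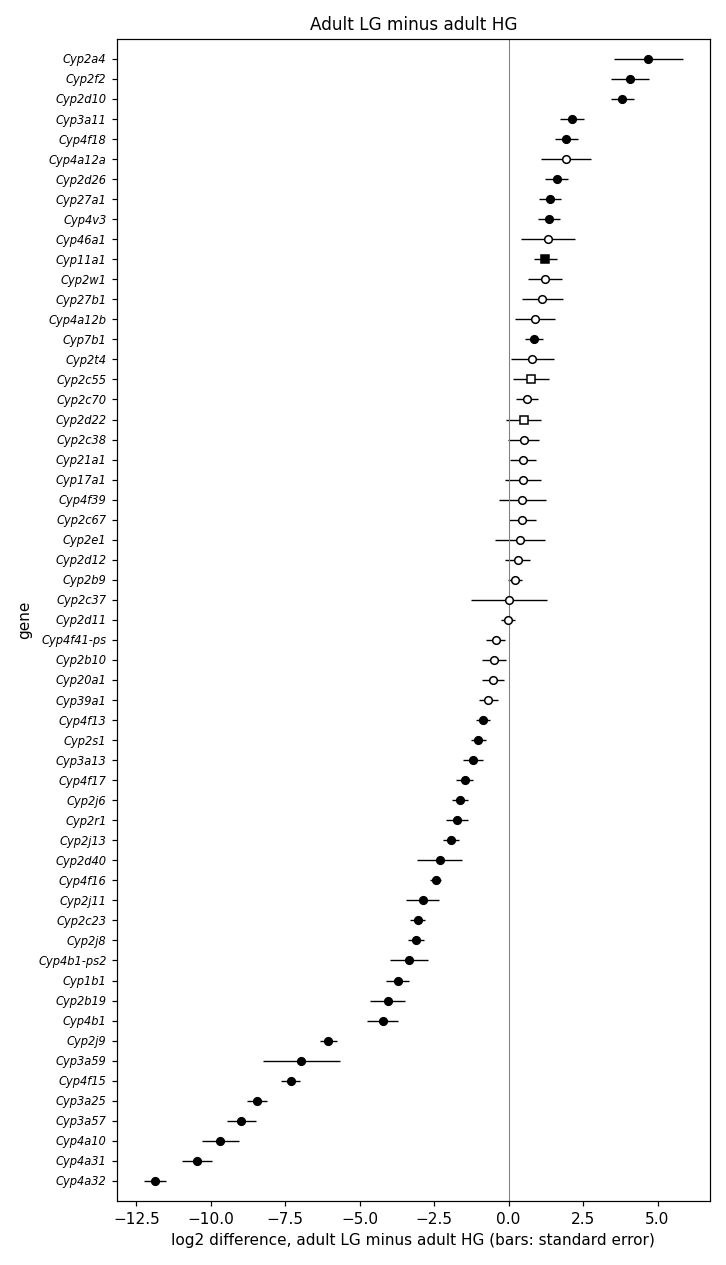
Log2 difference between adult LG and adult HG for each of the 57 Cyp genes, with standard error bars from limma, sorted from the highest to the lowest. Filled symbols passed an adjusted p of 0.05 and squares were not well above background on any array of either gland; the lowest values are Cyp4a32 (−11.87), Cyp4a31 (−10.46) and Cyp4a10 (−9.68) and the highest is Cyp2a4 (4.69).

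The age comparisons set each whole adult gland against the embryonic epithelium of the same gland. The adult samples also hold stroma, vessels and nerves, so stage and tissue make-up cannot be told apart. In LG, 41 of the 57 genes were called (all genes 69.8%), 37 higher in the adult (all genes 31.2%) and 4 lower (all genes 38.7%), and the median difference was 1.63, against −0.10 over all genes. Of the 8 genes not above background in either of those groups, 7 were called higher in adult LG, whose background sits higher on this scale; without the 8, there were 34 calls, 30 higher and 4 lower. In HG, 42 were called (all genes 70%), 39 higher in the adult (all genes 34.4%) and 3 lower (all genes 35.6%), with a median of 2.45, against 0.06 over all genes. Of 19 fatty acid and eicosanoid enzymes, 17 were higher in adult HG and 0 lower, and in adult LG 13 were higher and 2 lower. Of these 19, 3 qualified through adult HG alone and 1 through adult LG alone. Over the 57 genes the numbers were 7 and 2. Such genes had to be higher in the adult gland through which they qualified. Cyp2b10 and Cyp2b9 qualified through both adult glands and no embryonic group, so they too had to be higher in the adult.

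3 Cyp2b genes were high in both adult glands and at background in gland epithelium of the embryo. Cyp2b10, a target of the constitutive androstane receptor in liver, stood at 5.97 and 6.15 in adult LG, against −7.24, −7.10 and −7.57 in LG epithelium, and at 5.87, 6.29 and 7.49 in adult HG, against −6.95, −6.86 and −6.83 in HG epithelium. It was at least 2350-fold higher in adult LG and at least 2480-fold higher in adult HG. Cyp2b9 was at least 43.4-fold higher in adult LG and at least 28.2-fold higher in adult HG. Cyp2b19, an arachidonic acid epoxygenase known from keratinocytes, was at least 275-fold higher in adult LG and at least 3450-fold higher in adult HG. Cyp2b10 and Cyp2b9 qualified through the adult glands alone, so the detection rule set the direction of their age difference. The glands overlapped for Cyp2b10 and Cyp2b9, neither of which was called between adult LG and adult HG.

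The ethanol-oxidising Cyp2e1 stood at 0.05 and −1.52 in adult LG, against −3.62, −3.06 and −4.32 in LG epithelium, and at 0.08, −1.25 and −2.17 in adult HG, against −2.48, −3.27 and −4.77 in HG epithelium. It was higher in both adult glands, by 2.93 ± 0.84 and 2.39 ± 0.75, with no overlap. Cyp2c37 was called in no comparison, and Cyp2c67 only in adult HG against HG epithelium (0.94 ± 0.41, with overlap). Cyp2c70 was higher in both adult glands (1.63 ± 0.36 in LG and 1 ± 0.32 in HG, where arrays overlapped), and Cyp2d40 in adult HG (2.51 ± 0.67).

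Both glands also shared higher adult levels of Cyp2a4 (12.97 ± 1.15 in LG and 9.28 in HG), Cyp2f2 (7.60 ± 0.63 and 5.30) and Cyp27a1 (at least 85.1-fold and at least 24.5-fold). Cyp2a4 varied among the LG epithelium arrays themselves (−1.78, −4.26 and −6.60). In HG, Cyp4a10, Cyp4a31, Cyp4a32, Cyp4f15, Cyp3a25 and Cyp3a57 were far above their levels in embryonic epithelium, by 11.17 ± 0.55 and 11.46 ± 0.45 for Cyp4a10 and Cyp4a31 and by at least 2580-fold, 808-fold, 296-fold and 401-fold for the other 4. In LG, Cyp4a10 (−0.83 and −1.88 in the adult, against −2.79, −1.81 and −3.09 in epithelium) and Cyp4a31 differed by 1.21 ± 0.62 and 0.76 ± 0.50, and neither passed the test. Cyp4a12a was at least 40.5-fold higher in adult LG than in LG epithelium.

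Cyp7b1, the oxysterol hydroxylase that inactivates side-chain oxysterols and metabolises steroids in several tissues, ran against the trend. It stood at −0.39 and −0.39 in adult LG, against 4.03, 3.93 and 4.09 in LG epithelium, and at −0.26, −1.78 and −1.65 in adult HG, against 3.23, 2.94 and 3.30 in HG epithelium. The groups lay far apart in both glands, and Cyp7b1 fell by 4.41 on the log2 scale in LG (SE 0.30; limma adjusted p = 4.09e-10) and by 4.38 in HG (SE 0.27; adjusted p = 6.67e-11). In LG, Cyp2j9 (−1.54 ± 0.28), Cyp4f16 (−1.55 ± 0.19) and Cyp1b1 (−1.81 ± 0.39) were the other genes lower in the adult. Cyp1b1 differed by −2.74 without adult LG replicate 1 and by −0.88 without adult LG replicate 2. It was above background on 1 of 2 adult LG arrays, and its difference shrank to −0.59 with normexp correction. In HG, Cyp1b1 (−0.95 ± 0.35) and Cyp3a11 (−0.92 ± 0.35) were the other genes lower in the adult.

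The change of the gland difference with age was tested directly, as the LG minus HG difference in the adult minus that in embryonic epithelium. It passed for 28 of the 57 genes (all genes 45.2%), 6 positive (all genes 18.1%) and 22 negative (all genes 27.1%). The 22 include all 7 genes that qualified through adult HG alone, and the 6 include Cyp2d10, which qualified through adult LG alone. The detection rule set the direction of these genes, Cyp4a32 and Cyp3a57 among them. The lowest values were those of Cyp4a32 (−11.76 ± 0.49), Cyp4a31 (−10.70 ± 0.67), Cyp4a10 (−9.96 ± 0.83) and Cyp3a57 (−9.04 ± 0.65), whose embryonic LG minus HG differences were between −0.11 and 0.28. Cyp4a32, Cyp3a57, Cyp2d10 and Cyp27a1 were not well above background in either embryonic epithelium, and Cyp2d10 in adult HG, so those terms have no measured level behind them. On the positive side were Cyp2d10 (4.53 ± 0.53), Cyp27a1 (2.56 ± 0.50), Cyp4f18 (2.54 ± 0.53; 1.57 without adult LG replicate 1) and Cyp2f2 (2.30 ± 0.85, limma adjusted p = 0.0347). Of the first pair, Cyp2d10 differed by −0.71 and Cyp27a1 by −1.18 between the embryonic epithelia, and those background values enter the interaction. Cyp2f2 already differed by 1.78 between the embryonic epithelia, and its interaction was lost with the replicate number as a block (2.23, adjusted p = 0.0506). Without HG epithelium replicate 2 it was 2.19 (adjusted p = 0.0673), and leaving out either adult LG array, either of LG epithelium replicates 2 and 3, or adult HG replicate 3 ended the call as well.

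**Figure D3:**
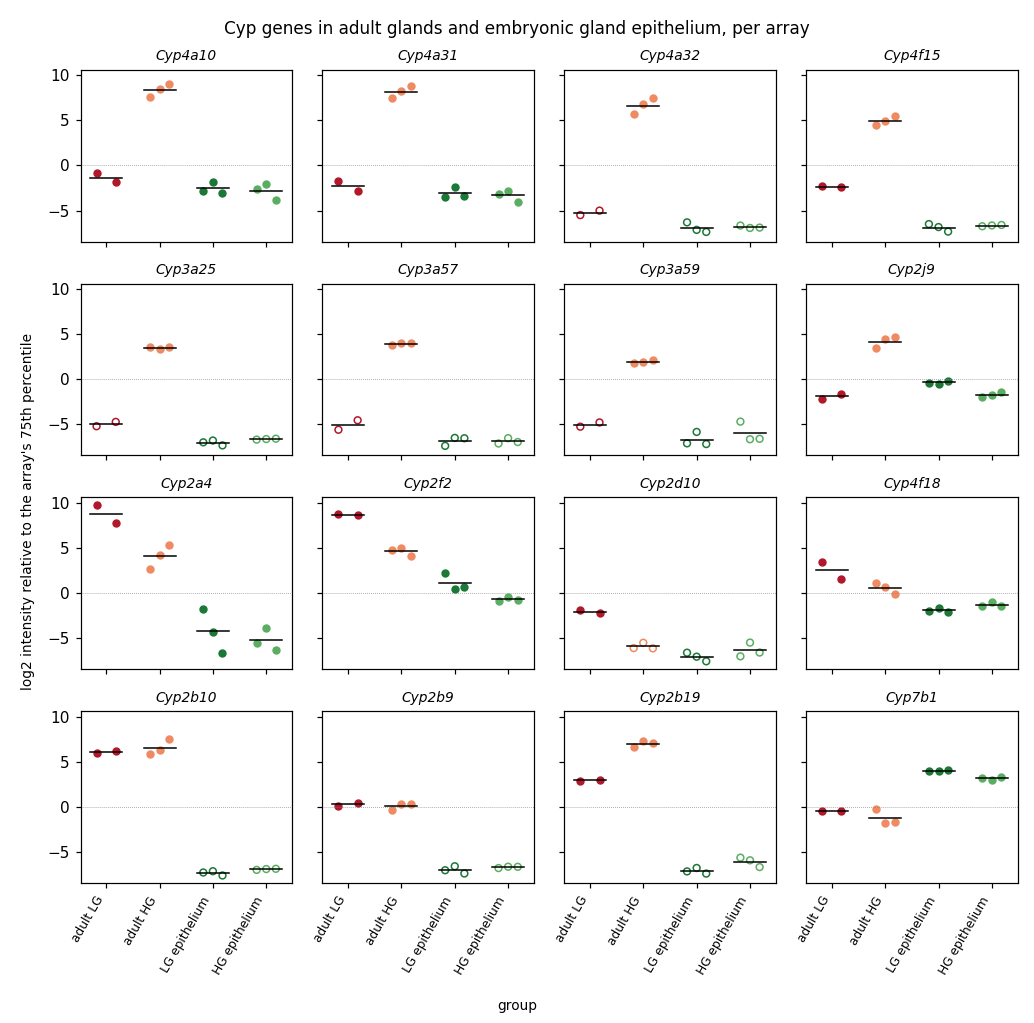
Level of 16 Cyp genes on every array of adult LG, adult HG, LG epithelium and HG epithelium, as log2 intensity relative to the array's 75th percentile, with lines at group means and open symbols where no array of the group was well above background. Cyp4a, Cyp3a and Cyp4f15 points stand high in adult HG, Cyp2a4 and Cyp2f2 are highest in adult LG, and Cyp7b1 is high in both embryonic epithelia and below 0 in both adult glands.

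Within the embryo, epithelium was compared with mesenchyme in each tissue. In LG, 22 of the 57 genes were called (all genes 58.6%), 8 higher in epithelium (all genes 32.1%) and 14 lower (all genes 26.5%). In HG, 19 were called (all genes 57.9%), 4 higher (all genes 29.8%) and 15 lower (all genes 28.1%). In eyelid, 25 were called (all genes 51.2%), 14 higher (all genes 25.7%) and 11 lower (all genes 25.5%).

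Several genes were higher in eyelid epithelium than in eyelid mesenchyme. Cyp2b19 stood at 3.02, 2.97 and 1.31 in eyelid epithelium, against −2.28, −3.76 and −5.14 in eyelid mesenchyme. Cyp4f39, whose human counterpart makes the omega-hydroxylated fatty acids of the skin barrier, stood at 1.46, 1.61 and 1.07, against −4.03, −4.79 and −4.17. Both were well apart, by 6.16 ± 0.53 (SE; limma adjusted p = 2.06e-08) and 5.71 ± 0.70; Cyp4f39 and Cyp2w1 qualified through this group alone and had to be higher in it. Cyp2w1 (3.70 ± 0.51), Cyp2t4 (3.30 ± 0.64), Cyp2s1 (2.50 ± 0.23), an epithelial enzyme of retinoids and eicosanoids, and Cyp2c38 (1.99 ± 0.46) were higher in eyelid epithelium too, with no overlap between the arrays. The other Cyp2c38 probe did not pass the detection rule. It had means of −6.52 in eyelid epithelium and −6.55 in eyelid mesenchyme, at background, and does not repeat the difference. Against eyelid epithelium, Cyp2b19 was at least 191-fold lower in LG epithelium and at least 143-fold lower in HG epithelium, and Cyp4f39 differed by −7.20 ± 0.70 in LG epithelium and was at least 69.1-fold lower in HG epithelium.

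Epidermal differentiation markers moved with this set: 6 of 8 were measured and summed to 1170 to 1700 in eyelid epithelium, 23.4 to 108 in eyelid mesenchyme and 1.78 to 2.21 in the gland epithelia, where Sprr3, Krt77 and Dsc1 were not detected. Their part in the Cyp levels was not tested. Adult HG had Cyp2b19 at 6.64, 7.35 and 7.08 with epidermal markers at 1.91 to 2.19, and adult LG had it at 2.93 and 2.99 with epidermal markers at 1.39 to 1.98. Between embryonic epithelia, 19 genes were called between LG and eyelid (all genes 45.5%), 6 higher in LG (all genes 27.2%) and 13 lower (all genes 18.3%). Between HG and eyelid 19 were called (all genes 44.6%), 4 higher in HG (all genes 26.6%) and 15 lower (all genes 18%). Cyp2f2 was lower in both gland epithelia (−2.57 ± 0.57 in LG and −4.36 ± 0.57 in HG), and Cyp20a1, a P450 of unknown substrate, was higher (2.31 ± 0.33 and 2.25 ± 0.33).

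Cyp3a11, Cyp4f41-ps and Cyp2f2 were higher in epithelium in all 3 tissues. Cyp3a11 was at least 3.26-fold higher in LG, 1.93-fold in HG and 2.94-fold in eyelid, with no mesenchymal array above background. Its HG call was lost with normexp correction (0.40, limma adjusted p = 0.0764). The other Cyp3a11 probe did not pass the detection rule, so these values rest on a single probe. The pseudogene Cyp4f41-ps differed by 1.81 ± 0.30, 1.78 ± 0.30 and 1.49 ± 0.30. Cyp2f2 differed by 3.49 ± 0.57 in LG, 1.92 ± 0.57 in HG and 1.39 in eyelid; the HG call was lost without mesenchyme replicate 3 (1.14, limma adjusted p = 0.0615), and the eyelid call with the replicate number as a block (adjusted p = 0.0576, against 0.0484).

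Several genes were mesenchymal in every tissue. Cyp11a1, the mitochondrial side-chain cleavage enzyme that starts steroid synthesis from cholesterol, stood at −4.54, −4.50 and −4.90 in LG epithelium, against −0.25, −0.43 and −0.46 in LG mesenchyme. It stood at −6.80, −5.59 and −5.20 in HG epithelium, against −3.07, −2.75 and −2.89 in HG mesenchyme, and at −5.23, −3.86 and −4.18 in eyelid epithelium, against 0.54, 0.63 and 0.30 in eyelid mesenchyme. The mesenchymal arrays were above the epithelial ones in all 3 tissues, and HG mesenchyme was lower than the other two mesenchymes. The differences, epithelium minus mesenchyme, were −4.27 ± 0.35 in LG, −2.96 ± 0.35 in HG (at least 3.54-fold) and −4.92 ± 0.35 in eyelid (limma adjusted p = 6.83e-09, 8.12e-07 and 2e-09). Neither adult gland had Cyp11a1 above background.

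Cyp2d12 (at least 7.68-fold lower in LG epithelium, 6.8-fold in HG epithelium and 2.41-fold in eyelid epithelium), Cyp2d22, the lung enzyme Cyp4b1, its pseudogene Cyp4b1-ps2 and Cyp4f18 were lower in epithelium in all 3 tissues. Cyp2d11 differed by −2.27 ± 0.20 in LG, −2.33 ± 0.20 in HG and −0.97 in eyelid, and Cyp2c55 by −3.89 ± 0.54, −2.05 ± 0.54 and −1.92. Cyp2c55 was not well above background in any epithelium, so its differences have no measured epithelial level. In eyelid mesenchyme, its replicate 3 (−6.27) was at background as well. Cyp2c55 and Cyp2d22 qualified through mesenchyme alone, so the detection rule set or favoured their direction. Cyp27a1 was at least 2.07-fold lower in eyelid epithelium than in eyelid mesenchyme. With normexp correction 4 of these calls were lost: Cyp2c55 in HG (−0.40, limma adjusted p = 0.104), Cyp4b1-ps2 in HG (−0.74, adjusted p = 0.0773) and in eyelid (−0.69, adjusted p = 0.107), and Cyp2d22 in eyelid (−0.32, adjusted p = 0.141). The call of Cyp2d22 in eyelid (−1.34 ± 0.53, limma adjusted p = 0.0405) was also lost when any of 4 eyelid arrays was left out: epithelium replicate 1 (−1.24, adjusted p = 0.105), epithelium replicate 3 (−1.09, adjusted p = 0.142), mesenchyme replicate 1 (−1.20, adjusted p = 0.115) or mesenchyme replicate 2 (−1.24, adjusted p = 0.104).

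Whether the compartment difference depended on the tissue was tested by an F test over the 3 differences, which passed for 21 of the 57 genes (all genes 42.3%). The highest F values were those of Cyp2s1 (69.4; limma adjusted p = 1.59e-07) and Cyp2b19 (40.6; adjusted p = 4.17e-06), followed by Cyp4f13, Cyp2j6, Cyp1b1, Cyp2j8, Cyp2j13 and Cyp4f39, whose F was 19.1. Cyp2s1 was lower in epithelium in LG (−1.16), higher in eyelid (2.50) and −0.44 in HG, a difference not called. Cyp4f13 differed by −0.75 in LG, −0.76 in HG and 1.08 in eyelid. Leaving out eyelid mesenchyme replicate 1 raised the F of Cyp2b19 to 71.1, and leaving out LG epithelium replicate 2 raised that of Cyp4f39 to 30.6.

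The compartment difference of Cyp2j6, Cyp2j8 and Cyp2j13 was 1.59, 1.42 and 1.52 in LG and −0.75, −0.86 and −0.76 in HG, and that of Cyp1b1 was 2.23 in LG and −1.26 in HG. Between LG epithelium and HG epithelium 8 of the 57 genes were called (all genes 6.35%), 6 higher in LG (all genes 2.96%) and 2 lower (all genes 3.39%). Of the 2, Cyp27a1 was not well above background on any array of either epithelium, and its arrays overlapped. Without it there were 7 calls, 6 higher and 1 lower. The 6 include 4 Cyp2j genes, whose probes may read each other's copies. With normexp correction the split was 7 and 1. Cyp2j6 stood at 0.88, 0.74 and 1.17 in LG epithelium, against −0.89, −0.82 and −0.74 in HG epithelium. Cyp2j8 stood at 1.01, 0.90 and 1.20 against −0.84, −0.51 and −0.60, and Cyp2j13 at −1.19, −1.22 and −0.91 against −2.82, −2.87 and −2.90. LG arrays were above HG arrays throughout, by 1.75 ± 0.24, 1.68 ± 0.24 and 1.75 ± 0.24, and Cyp2j9 was higher by 1.36 ± 0.25 (limma adjusted p = 6.75e-05, 0.000145, 8.7e-05 and 0.00152). This is the opposite direction to the adult glands, where the same 4 genes were lower in LG. The second Cyp2j6 probe had group means of −2.26 in LG epithelium and −4.71 in HG epithelium, the same direction. For Cyp2j8 the second probe had group means of −6.84 in LG epithelium and −6.62 in HG epithelium, below the lowest signal called above background there, so it gives no level. One further Cyp2j13 probe, which passed the detection rule, had −4.49 in LG epithelium and −4.30 in HG epithelium. That probe does not repeat the Cyp2j13 difference.

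Cyp1b1, which oxidises oestradiol and retinoids and is mutated in human congenital glaucoma, was highest in HG among the embryonic samples. It stood at −0.89, −0.74 and −0.30 in LG epithelium, against 2.43, 2.01 and 2.23 in HG epithelium, and at −2.79, −2.75 and −3.08 in LG mesenchyme, against 3.42, 3.53 and 3.50 in HG mesenchyme. LG arrays were below HG arrays in both compartments, by −2.87 ± 0.35 in epithelium (limma adjusted p = 2.25e-05) and −6.36 ± 0.35 in mesenchyme (adjusted p = 9e-10). HG mesenchyme exceeded eyelid mesenchyme by 3.98 ± 0.35, and LG mesenchyme differed from it by −2.38 ± 0.35. The 5 pigment cell markers summed to 2.92 to 3.31 in LG mesenchyme, 79.8 to 109 in HG mesenchyme and 68.4 to 79.2 in eyelid mesenchyme, and to 0.492 to 0.566 in LG epithelium, 1.26 to 4.21 in HG epithelium and 96.4 to 140 in eyelid epithelium; their part in Cyp1b1 was not tested. Adult LG stood at −1.52 and −3.38 (1 of 2 arrays above background), against 1.89, 1.25 and 0.68 in adult HG.

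Cyp7b1 had its highest level in LG epithelium. It differed by 1.79 ± 0.27 from LG mesenchyme (limma adjusted p = 1.67e-05), and exceeded eyelid epithelium by 3.35 ± 0.27 in LG and 2.49 ± 0.27 in HG. LG epithelium and HG epithelium did not overlap, but their difference of 0.86 was not called (limma adjusted p = 0.076), except with the replicate number as a block (adjusted p = 0.042). Cyp11a1 was called between the gland epithelia (1.22 ± 0.35, adjusted p = 0.0431; at least 1.06-fold). It lost the call without LG epithelium replicate 1 (1.17, adjusted p = 0.138), replicate 2 (1.15, adjusted p = 0.141) or replicate 3 (1.35, adjusted p = 0.0656), and without HG epithelium replicate 1 (0.75, adjusted p = 0.237) or replicate 2 (1.36, adjusted p = 0.0611).

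Between LG and HG mesenchyme 5 genes were called (all genes 14.3%), 2 higher in LG (all genes 6.46%) and 3 lower (all genes 7.85%). Between LG and eyelid mesenchyme 14 were called (all genes 31.2%), 7 higher in LG (all genes 15.5%) and 7 lower (all genes 15.7%), a split that became 9 and 5 with quantile normalization. Between HG and eyelid mesenchyme 10 were called (all genes 22.4%), 6 higher in HG (all genes 11.1%) and 4 lower (all genes 11.3%), or 7 and 2 with normexp correction. Cyp11a1 was higher in LG than in HG by 2.53 ± 0.35 and lower in HG than in eyelid by −3.40 ± 0.35. Cyp2s1 stood at 1.27, 1.01 and 1.42 in LG mesenchyme, against −0.49, −0.63 and −0.85 in HG mesenchyme and −1.01, −1.07 and −0.84 in eyelid mesenchyme. Its LG arrays were above all others, by 1.89 ± 0.23 over HG and 2.21 ± 0.23 over eyelid. Cyp2f2 was lower in both gland mesenchymes than in eyelid mesenchyme (−4.67 ± 0.57 and −4.89 ± 0.57), and Cyp2d11, Cyp2d12 and Cyp7b1 were higher by 1.07 to 1.41. Cyp4b1 (−1.73 ± 0.47) and Cyp4f18 (−1.09 ± 0.35) were lower in LG than in HG mesenchyme, but adjusted p rose to 0.0531 to 0.059 for Cyp4b1 without LG replicates 2 or 3 or HG replicates 1 or 3, and to 0.0775 to 0.157 for Cyp4f18 without any single array of the pair. Against eyelid mesenchyme, LG mesenchyme also differed in Cyp2c55 (2.04 ± 0.54; 1.22 without eyelid replicate 3), Cyp27a1 (−1.71 ± 0.33), Cyp4b1 (−1.68 ± 0.47; adjusted p = 0.0557 without eyelid replicate 1) and Cyp4v3 (−1.03 ± 0.33, adjusted p = 0.023). Cyp4v3 lost its call without LG replicate 1 or 3 or eyelid replicate 2 or 3 (0.0624 to 0.0746), as did Cyp2d12 (0.0533 to 0.0702).

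**Figure D4:**
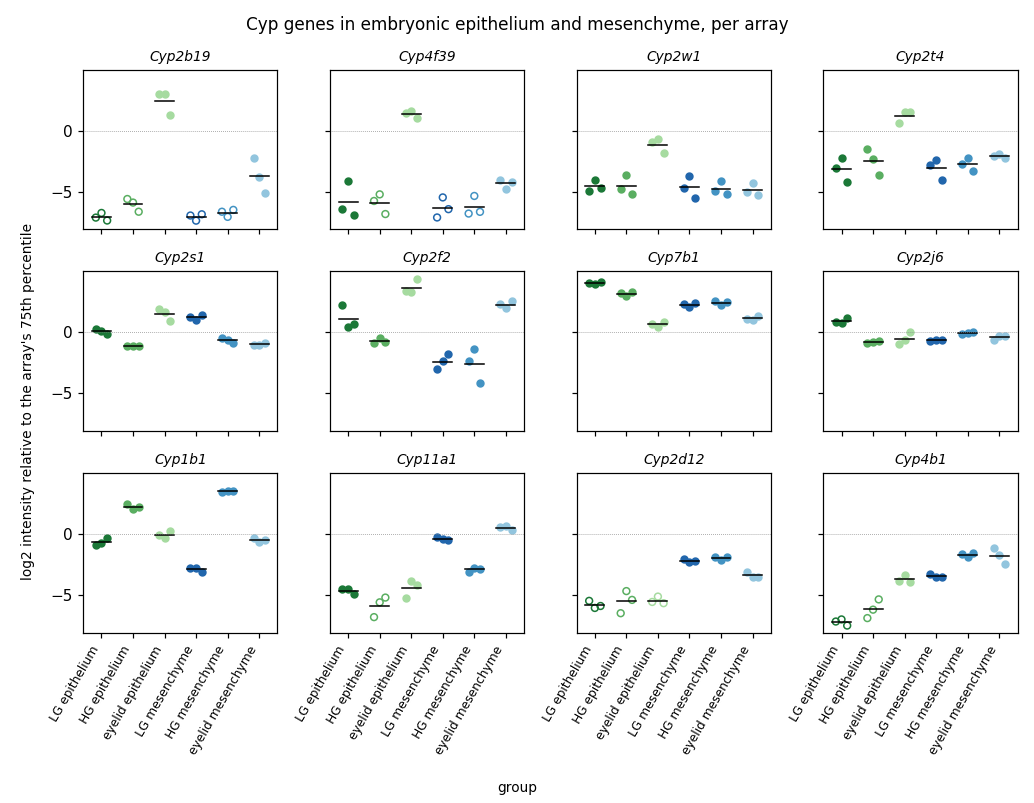
Level of 12 Cyp genes on every embryonic array, as log2 intensity relative to the array's 75th percentile, with epithelial groups (green) left of mesenchymal groups (blue), lines at group means and open symbols where no array of the group was well above background. Cyp2b19 and Cyp4f39 stand above 1 in eyelid epithelium, Cyp1b1 is highest in HG mesenchyme, and Cyp11a1 is highest in eyelid and LG mesenchyme.

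The remaining steroid, sterol and vitamin D enzymes had narrower ranges. Cyp17a1, which makes androgen precursors, stood at 5.10 and 3.26 in adult LG, 4.64, 3.37 and 3.07 in adult HG and 1.65 to 3.87 over the 18 embryonic arrays, and passed the test between adult LG and LG epithelium, with overlapping arrays (1.46, limma adjusted p = 0.0371). Cyp21a1 of the adrenal corticoid pathway ranged over 0.88 between its highest and lowest group means, and Cyp27b1, which activates vitamin D in kidney, over 1.13. Cyp46a1, the cholesterol hydroxylase of brain, ranged over 1.94 with overlap between its 2 highest groups. Cyp39a1, an oxysterol hydroxylase, was higher in both adult glands than in epithelium (0.84 in LG and 1.14 in HG). Cyp2r1, which hydroxylates vitamin D in liver, stood at 1.58 and 1.43 in adult LG, against 3.37, 3.25 and 3.13 in adult HG, and the glands did not overlap (−1.74, adjusted p = 0.00066).

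Genes that serve the P450 enzymes were measured on the same arrays. For the lists that follow, 22.4% of all genes were higher and 33.2% lower in adult LG than in adult HG, and 34.4% were higher and 35.6% lower in adult HG than in HG epithelium. Of 12 redox partners, 1 was higher and 8 lower in adult LG than in adult HG, and 9 were higher and 2 lower in adult HG than in HG epithelium. Fdxr, the mitochondrial ferredoxin reductase, stood at 0.63 and 1.21 in adult LG, against 5.01, 5.91 and 5.96 in adult HG (−4.70 ± 0.22, limma adjusted p = 4.18e-12). Cyb5b (−3.50 ± 0.30) and Cyb5r3 (−2.41 ± 0.26) were lower in LG too, and Cyb5r1 was higher (0.93 ± 0.17). Por itself, singled out after its values were seen because most of these enzymes depend on it, stood at 5.23 and 5.37 in adult LG, against 4.94, 5.26 and 6.02 in adult HG, with no call between the glands (−0.11 ± 0.37). It was higher in both adult glands than in the epithelium (2.45 ± 0.37 in LG and 2.74 ± 0.33 in HG).

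Among 24 measured transcription factors known to control Cyp genes, 3 were higher (all genes 22.4%) and 13 lower (all genes 33.2%) in adult LG than in adult HG. Pparg, the adipogenic and sebogenic receptor, stood at −0.50 and −1.27 in adult LG, against 5.84, 6.59 and 6.65 in adult HG (−7.25 ± 0.25, limma adjusted p = 5.75e-14). The oxysterol receptor Nr1h3 (−3.49 ± 0.27) and the vitamin D receptor Vdr (−3.25 ± 0.37) were lower in LG, while Foxa1 (8.63 ± 0.68), Rxra (3.08 ± 0.32) and Nr5a1 (0.73 ± 0.29) were higher. Ppara was 6.03 ± 0.18 higher in adult HG than in HG epithelium, Pparg 8.41 ± 0.22 and Nr1h3 5.85 ± 0.24. The aryl hydrocarbon receptor Ahr (−0.91 ± 0.13) and its repressor Ahrr (−1.38 ± 0.26) were lower in adult HG than in HG epithelium.

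Enzymes that act beside or after the P450s were measured as well. Of 16 epoxide hydrolases, flavin monooxygenases and related oxidoreductases, 1 was higher (all genes 22.4%) and 9 lower (all genes 33.2%) in adult LG than in adult HG, and 14 were higher (all genes 34.4%) and 1 lower (all genes 35.6%) in adult HG than in HG epithelium. Ephx2, which hydrolyses the epoxides made by Cyp2c and Cyp2j enzymes, stood at −1.03 and −0.70 in adult LG, against 4.54, 4.61 and 5.31 in adult HG (−5.68 ± 0.21, limma adjusted p = 1.79e-13). Of 33 measured conjugating enzymes, 7 were higher and 18 lower in adult LG than in adult HG, led by Gsta3 (5.21 ± 0.43) on one side and Sult2b1 (−9.23 ± 0.33) and Mgst2 (−8.76 ± 0.34) on the other, and 28 were higher and 3 lower in adult HG than in HG epithelium. Of 6 measured genes of the aryl hydrocarbon receptor battery, 0 were higher and 5 lower in adult LG than in adult HG, Cyp1b1 (−3.73 ± 0.39) and Ugt1a6a (−5.57 ± 0.53) among them.

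Tbxas1 and Ptgis, synthases of thromboxane and prostacyclin that share the P450 fold without a Cyp symbol, were lower in epithelium than in mesenchyme in all 3 tissues. Ptgis differed by −5.09 ± 0.45 in LG, −4.90 ± 0.45 in HG and −4.83 ± 0.45 in eyelid, and Tbxas1 by −3.46 ± 0.39, −3.28 ± 0.39 and −3.75 ± 0.39. Immune markers, 6 measured, summed to 3.87 to 11 in the epithelia and 48.6 to 74.1 in the mesenchymes; their part in Tbxas1 was not tested. Of 8 measured partners of steroid synthesis, 1 was higher and 3 lower in epithelium in LG (all genes 32.1% and 26.5%), 3 and 3 in HG (29.8% and 28.1%) and 3 and 2 in eyelid (25.7% and 25.5%). Against embryonic epithelium, 4 were higher and 1 lower in adult LG (all genes 31.2% and 38.7%), and 5 were higher and 1 lower in adult HG (34.4% and 35.6%). The steroid dehydrogenases Hsd17b2 (7.90 ± 0.42 in LG and 7.81 ± 0.38 in HG) and Hsd11b1 (6.30 ± 0.50 and 7.97 ± 0.45) and the mitochondrial protein Tspo (2.17 ± 0.21 and 5.27 ± 0.19) were among those higher in the adult. The reductase Srd5a1 was higher in epithelium in all 3 tissues (3.18 ± 0.23, 2.71 ± 0.23 and 2.23 ± 0.23) and lower in both adult glands than in their embryonic epithelium (−4.68 ± 0.25 in LG and −3.17 ± 0.23 in HG).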

How the data were processed

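The deposited files are scanner output of 1-colour Agilent arrays, 1 per sample; per the file headers they were made with Agilent Feature Extraction, in version 11.0.1.1 on the 7 arrays of slide 1, which holds no adult LG array, and 11.5.1.1 on the other 16, the version the submitters' processing notes give. The values used are the deposited processed intensity of each spot, already background-subtracted by that software per the file headers, and its flag for being well above background. Spots of a probe were averaged, and log2 of the deposited intensity minus the array's 75th percentile was taken. Probes were named through RefSeq accessions (27509 of 55681 probes, 20887 symbols), and 28172 probes stayed unnamed.

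A gene was tested if 1 probe was well above background, in at least 0.5 of its spots, on all arrays of at least 1 group (16324 genes); the brightest such probe stood for the gene. For Cyp21a1, Cyp2c37, Cyp2c38, Cyp2c67 and Cyp3a11, a further probe did not pass this rule. A gene counted as undetected only if all its probes were. All 23 arrays were fitted together in limma 3.58.1 (R 4.3.3) with 8 group means, and p-values were adjusted by Benjamini-Hochberg over all 16324 genes, two-sided, with a threshold of 0.05. The number of arrays limits the precision. The fit was tested on simulated data.

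Genes named in a comparison were called, at least 2-fold, without overlap and detected throughout the brighter group, up to 8 in each direction; other Cyp genes are given to account for all members. The members and all gene lists were chosen with earlier results of these data known. Replicate numbers paired the embryonic arrays: deviations of same-numbered arrays correlated at 0.171 to 0.578 in the 9 embryonic comparisons, and each number is 1 slide there. Adult pairs went as low as −0.34. Alternatives were other scalings, normexp background correction (on median signals), filters, probe averaging, slide or replicate number as a block, only the compared groups, and leaving out each array.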

Additional observations from a re-analysis of the deposited data

Results flagged for a closer look

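In limma's F test over LG, HG and eyelid, the compartment differences varied most between tissues for Cyp2s1 (F 69.4), Cyp2b19 (40.6), Cyp4f13 (28.6), Cyp2j6 (26.3), Cyp1b1 (25.1), Cyp2j8 (23), Cyp2j13 (22.9) and Cyp4f39 (19.1). For Cyp2b19 and Cyp4f39 the eyelid differences were 6.16 and 5.71, against −0.02 and 0.52 in LG and 0.68 and 0.32 in HG. Cyp2j6, Cyp2j8, Cyp2j13 and Cyp1b1 were higher in epithelium in LG and lower in epithelium in HG.

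The LG minus HG difference in the adult departed from that in embryonic epithelium by 4.53 for Cyp2d10, 2.56 for Cyp27a1, 2.54 for Cyp4f18 and 2.3 for Cyp2f2. It departed by −9.04 for Cyp3a57, −9.96 for Cyp4a10, −10.7 for Cyp4a31 and −11.76 for Cyp4a32. Cyp2d10, Cyp27a1, Cyp3a57 and Cyp4a32 were not well above background in either embryonic epithelium, where their LG minus HG differences were −0.71, −1.18, 0.06 and −0.11, so these terms have no measured level behind them. Cyp3a57 and Cyp4a32 qualified through adult HG alone and Cyp2d10 through adult LG alone, so the detection rule set their direction. The adult samples are whole glands, so stage and tissue make-up cannot be told apart in these values.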

How the results depend on the processing

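Of 149 results on named genes, 129 had the same call under every setting tried and 20 lost it at least once; of 2583 values, 61 missed the threshold and none reversed. The count of Cyp genes called moved by over 1.5 times for LG against HG mesenchyme alone: 5 became 8 with slide as a block, 10 with only the compared groups, and 3 without LG mesenchyme replicate 2 or HG mesenchyme replicate 3 (range 3 to 4 over left-out arrays); the cause was not tested. Leaving out 1 array gave 20 to 23 calls for LG epithelium against mesenchyme, 18 to 20 for HG, 21 to 24 for eyelid, 6 to 8 for LG against HG epithelium, 17 to 20 and 16 to 18 for LG and HG against eyelid epithelium, 10 to 13 and 9 to 11 for LG and HG against eyelid mesenchyme, 31 to 37 for adult LG against adult HG, 34 to 42 and 38 to 43 for adult LG and adult HG against epithelium, 19 to 22 for the tissue dependence and 24 to 28 for the age dependence. With the replicate block, adult LG against adult HG gave 36 calls and LG against HG mesenchyme 7, and the interaction of Cyp2f2 (2.23, adjusted p = 0.0506) and Cyp2f2 in eyelid epithelium against mesenchyme (adjusted p = 0.0576) lost their calls, while Cyp7b1 between LG and HG epithelium gained one (adjusted p = 0.042). Median scaling moved the median of all genes in adult LG against LG epithelium to −0.57, against −0.10. Normexp correction shrank the named adult differences to 0.326 to 0.943 of their size, with Cyp4a32 at −8.33 and Cyp3a25 at −4.88 between adult LG and adult HG. Dim probes limit the rest: their fitted differences follow each array's background.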
